A study of Homo sapiens with 6 samples.

Results

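Cell adhesion and guidance families were examined in PC9 cells and their gefitinib-resistant derivative PC9-GR. PC9 is a human lung adenocarcinoma line of epithelial cells with a deletion in exon 19 of EGFR, the receptor kinase that gefitinib blocks. The resistant line arose under stepwise gefitinib doses of 0.5 up to 10 µM and was then held at the 10 µM dose, which was withdrawn for 7 days ahead of RNA extraction, while PC9 is the parental line. Both carry the EGFR deletion, and each gave 3 libraries from independent cultures. Whether PC9-GR is a clone or a pool is not stated. Resistance and the long culture under drug cannot be told apart in this design.

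Members were taken by symbol from the protein-coding rows of the deposited table. Symbols beginning with ITGA, ITGB, LAMA, LAMB, LAMC, ADAM, PCDH, CNTN, NCAM, SEMA, PLXN, EPHA, EPHB, EFN, ROBO, SLIT, NRP, NTN, UNC5, FLRT, LRRC or TSPAN were kept, outside chromosomes 14 and 18 and without ITGAX, ITGAM and EPHA4. This gave 48 of 1705 rows, which are 47 genes because LAMA4 is listed at 2 loci. The prefix SLIT also takes in the SLITRK genes, CNTN takes in CNTNAP1, and ADAM takes in the ADAMTS genes. No gene of the LAMB, NRP or FLRT groups met the rule in this table. Of the 48 rows, 27 have a higher and 21 a lower level in PC9-GR by the authors' ratio.

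The table is itself a selection. Its rows have an authors' log2 ratio of at least 1.0002 in either direction and an authors' p-value of at most 0.04965, both from the same 6 libraries. A member that passes a test here is therefore no independent evidence of a difference, and what can vary is its direction, its size and its level. Levels are in FPKM, fragments counted per transcript length and sequencing depth, so they are scaled per length and can be set side by side between genes. The entry 0.001 is the lowest in the table and was read as its floor. Read counts are not in the table, so the depth behind each value is unknown. None of 15 epithelial markers chosen as a check of the label is listed, so the epithelial label could not be tested here. Of 10 lung adenocarcinoma lineage markers FOXA1 and LPCAT1 are listed, with a summed level of 144.2 to 157.8 FPKM over the PC9 libraries and 67.9 to 70.8 FPKM over the PC9-GR libraries, and both were called lower by the test described below.

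Integrins are receptors made of an alpha and a beta subunit that tie cells to the extracellular matrix, and laminins are basement membrane proteins that several of them bind. ADAM and ADAMTS proteins are membrane-bound or secreted metalloproteases and related adhesion proteins, and tetraspanins organise integrins and other receptors in the membrane. Protocadherins, contactin-associated proteins and NCAM proteins mediate contacts between cells. Semaphorins, slits, netrins and ephrins are guidance ligands read by plexins, ROBO, UNC5 and Eph receptors, and epithelial tumours use many of them in migration and adhesion.

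The promoters of the 6 listed gamma protocadherins are shown first, because these genes sit in a single cluster and all had higher values in PC9-GR, without overlap between the lines. Of the other coding rows listed outside chromosomes 14 and 18, 97% did not overlap and 56.2% were higher without overlap. Each gene of the cluster has its own promoter and first exon, which is joined to constant exons shared by the cluster. The stretches below come from RefSeq promoter windows on GRCh38.p14, plus strand of chromosome 5, and capitals mark GNCTCTNNGNGCCGC. The search set each run of 15 letters in the PCDHGA10 window against its closest run in 1 window of each other gene. Within that search no run had more positions identical in all 6 (11 positions). An overlapping run that ties with the marked one is not marked, and a full search over all windows was not made.
PCDHGB4, chr5:141387577-141387679: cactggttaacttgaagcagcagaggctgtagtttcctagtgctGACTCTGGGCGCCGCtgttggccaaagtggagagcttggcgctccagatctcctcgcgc
PCDHGB6, chr5:141407884-141407986: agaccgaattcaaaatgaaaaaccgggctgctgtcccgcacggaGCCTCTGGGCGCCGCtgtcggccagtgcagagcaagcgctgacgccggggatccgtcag
PCDHGA10, chr5:141412891-141412993: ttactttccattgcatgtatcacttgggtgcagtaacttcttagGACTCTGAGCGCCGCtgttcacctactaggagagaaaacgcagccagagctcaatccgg
PCDHGB7, chr5:141417543-141417645: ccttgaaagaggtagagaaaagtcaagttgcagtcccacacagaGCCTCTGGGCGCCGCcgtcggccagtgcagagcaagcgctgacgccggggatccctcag
PCDHGA11, chr5:141420932-141421034: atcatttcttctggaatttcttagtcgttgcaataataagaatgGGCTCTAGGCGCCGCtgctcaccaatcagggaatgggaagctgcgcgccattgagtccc
PCDHGC3, chr5:141475840-141475942: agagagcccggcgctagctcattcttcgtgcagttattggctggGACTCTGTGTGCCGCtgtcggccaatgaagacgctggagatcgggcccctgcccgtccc

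The motif was derived from these 6 sequences, so its presence in 6 of 6 genes is by construction. Searched on both strands of all windows of 300 bases, it occurs in 0.139% of 27305 genes, in 2 of 14 gamma protocadherins that are not listed, in 0 of 27 alpha and beta protocadherins and in 0 of the 29 other members with an entry. The run that ties with it occurs in 0.187% of all genes and in 3 of the 14. It begins at positions -93 to -52 relative to the RefSeq gene start. The shorter run GCGCCGC, which overlaps it, is in 5 of the 6 listed genes, 7 of the 14 not listed, and 19.6% of all genes. Such a match describes the letters only. Of 47 member symbols, 35 have a RefSeq promoter entry.

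Of the 48 members, 34 reached 1 FPKM in at least 3 of the 6 libraries and were tested with limma on log2(FPKM + 1). Of these, 19 were called higher in PC9-GR (55.9%) and 15 lower, at adjusted p under 0.05. This filter can be met by 1 line alone. ITGB2, LAMC3, ADAMTS1, PCDHGA10, CNTNAP1, PLXNC1, SEMA3E, SEMA6B and ROBO3 were under 1 FPKM in every PC9 library. They were tested only through their PC9-GR values, so their p-values, here and below, are no support for a rise. LAMA2, PCDHGA11 and SEMA4A reached 1 FPKM in only part of the PC9 libraries and met the filter only with their PC9-GR values. The same limit holds for their p-values. No member called lower was under 1 FPKM in every PC9-GR library. EPHA10 and SLITRK6 reached 1 FPKM in only part of the PC9-GR libraries and met the filter only with their PC9 values. For these genes the p-values, here and below, are no support for a fall. Of all 1207 tested rows, 48.4% were called higher, 51.3% lower and 99.7% in either direction, and of the other coding rows outside chromosomes 14 and 18, 55.2% were called higher, 44.6% lower and 99.9% in either direction. The members' split is thus near that of the coding rows around them. Without the 10 members whose locus overlaps another listed gene, 14 were called higher and 13 lower. The median difference of the tested members was 0.93 on the log2(FPKM + 1) scale, against -0.63 over all tested rows and 0.71 over the other coding rows. Over all rows, tested or not, the medians were 0.52 for the members, 0.29 for the whole table and 0.45 for the other coding rows. Without the members at shared loci, the members' median was 0.63 over those tested and 0.02 over all. A median over members that go both ways thus depends on which rows are counted.

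PC9 levels were lower for the members that were higher in PC9-GR. Members with a higher authors' ratio had a median PC9 mean of 0.583 FPKM, against 6.18 FPKM for those with a lower ratio. The other coding rows show the same order, at 0.662 and 5.05 FPKM. For 13 of 48 members (27.1%) the group mean went from under 1 FPKM in PC9 to at least 1 FPKM in PC9-GR, compared with 219 of 1152 other coding rows. The opposite passage was seen for 1 member, NTNG1 (2.08%, against 9.46%). The most abundant members in PC9 were ITGB4 and ITGA2, followed by EFNB2 and TSPAN13, whose libraries overlap. In PC9-GR ITGAV and LRRC61 led, also with overlapping libraries, ahead of ITGB4 and ITGA2, which overlap as well.

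Among integrins, the epithelial subunits ITGB4 and ITGA2 and the TGF-beta activating subunit ITGB8 fell, while ITGAV and the leukocyte subunit ITGB2 rose. ITGB4, which pairs with ITGA6 as a laminin receptor of hemidesmosomes, has the locus 73717407 to 73761792 on chromosome 17. Loci are the table's own and no build is named for them. ITGB4 measured 176.5, 157.4 and 130.5 FPKM in the PC9 libraries and 43.6, 56.2 and 46.9 FPKM in the PC9-GR libraries. Every PC9 library lay above every PC9-GR library, and the means differed 3.16-fold (log2 difference -1.64, SE 0.14, limma adjusted p = 2.82e-06).
ITGA2, the collagen-binding partner of ITGB1 (chromosome 5, 51971026 to 52390609), measured 97.5, 92.4 and 103.8 FPKM in PC9 and 46.7, 43.2 and 50.9 FPKM in PC9-GR. The groups were well apart and the fall was 2.09-fold (log2 difference -1.05, SE 0.10, limma adjusted p = 6.28e-06). With the libraries scaled to equal totals over the listed rows, the log2 difference of ITGA2 was -0.26 (limma adjusted p = 0.0362). ITGB8, a partner of ITGAV that activates latent TGF-beta (chromosome 7, 20367921 to 20455377), measured 19.3, 20.5 and 19.5 FPKM in PC9 and 3.85, 4.58 and 4.17 FPKM in PC9-GR. Its fall was the deepest on the log2 scale among the 34 tested members, 4.70-fold (log2 difference -2.00, SE 0.11, limma adjusted p = 3.06e-07). Its locus overlaps that of the listed gene CTA-293F17.1, so its value is uncertain where reads could be split. Without the members at shared loci, the deepest fall on the log2(FPKM + 1) scale was that of ITGB4 (-1.64). By the ratio of means SLITRK6 fell further, 4.55-fold.

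ITGAV, the alpha subunit shared by receptors for fibronectin, vitronectin and latent TGF-beta (chromosome 2, 187454791 to 187630685), measured 44.9, 45.5 and 49.98 FPKM in PC9. In PC9-GR it measured 88.6, 96.9 and 110.1 FPKM, above every PC9 library, a 2.11-fold rise (log2 difference 1.06, SE 0.11, limma adjusted p = 9.14e-06). ITGB2, the beta subunit of leukocyte integrins (chromosome 21, 46305867 to 46351904), was low in PC9 at 0.187, 0.232 and 0.482 FPKM and measured 1.93, 1.87 and 2.21 FPKM in PC9-GR. The rise was 6.66-fold (limma adjusted p = 6.86e-06, tested only through PC9-GR), and the level stayed far below those of ITGAV and ITGB4. Its known partners ITGAX and ITGAM, left out of the members, measured 2.83 ± 0.187 and 7.25 ± 2.12 FPKM (SD, n = 3) in PC9-GR. Of 10 haematopoietic markers 3 are listed: CD68 and CORO1A were called higher, and LYZ, below the filter, had means of 1.09 and 0.142 FPKM in PC9 and PC9-GR. Their summed level, most of it CD68, ran from 20.1 to 23.3 FPKM in the PC9 libraries and from 37.9 to 45.8 FPKM in the PC9-GR libraries. LYZ is at the floor in 1 PC9-GR library, and the part of these markers in the ITGB2 result was not tested. In RNA from whole cultures, fewer cells of a type and less RNA per cell cannot be told apart.

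ITGB3, another partner of ITGAV, was below the filter, with 0.157 ± 0.0952 FPKM in the PC9 libraries against 0.845 ± 0.182 FPKM in the PC9-GR libraries. The groups did not overlap, and an exact two-sided permutation of the libraries returned p = 0.1, which 3 against 3 cannot go below. The ITGAV partners ITGB8 and ITGB3 thus had opposite directions. Within single libraries, ITGB8 exceeded ITGB3 by 72.3, 220.7 and 174.3 times in PC9 and by 6.04, 4.69 and 4.54 times in PC9-GR.

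Laminin chains changed in both directions. LAMC3, a gamma chain (chromosome 9, 133884468 to 133969860), measured 0.836, 0.676 and 0.790 FPKM in PC9 and 7.43, 7.21 and 6.003 FPKM in PC9-GR. On the log2 scale this was the largest rise among the tested integrins, laminins, ADAM genes, protocadherins and tetraspanins, 8.97-fold (log2 difference 2.15, SE 0.14, limma adjusted p = 5.82e-07). LAMC3 was tested only through PC9-GR, so its p-value is no support for the rise. LAMA2, the alpha chain of muscle and nerve basement membranes (chromosome 6, 129204341 to 129837714), measured 0.525, 0.534 and 1.007 FPKM in PC9 and 3.61, 2.67 and 3.35 FPKM in PC9-GR. It rose 4.66-fold (log2 difference 1.32, SE 0.15, limma adjusted p = 2.03e-05), and 1 PC9 library was higher than the others. LAMA2 met the filter only with its PC9-GR values, so this p-value is no support for the rise. Of 9 fibroblast markers PDGFRB alone is listed, at 0.0661 to 0.143 FPKM in the PC9 libraries and 2.38 to 3.77 FPKM in the PC9-GR libraries, and its part in the laminin results was not tested.

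LAMA4, an alpha chain of vascular and muscle basement membranes, is listed on chromosome 6 at 112429962 to 112672498 and again on a patch scaffold. The patch entry measured 10.4, 9.89 and 7.03 FPKM in PC9 and 3.48, 4.38 and 4.27 FPKM in PC9-GR, and the chromosome 6 entry went from 3.47 ± 0.428 to 1.71 ± 0.361 FPKM. Reads can be split between such copies, so each value is uncertain. Summed over both entries, PC9 gave 14.1, 13.6 and 10.0 FPKM and PC9-GR gave 4.78, 6.24 and 6.24 FPKM, with no overlap and a 2.18-fold lower mean. Both entries were called lower (limma adjusted p = 0.000994 on chromosome 6 and 0.0002 on the patch). Scaling the libraries to the same total over the listed rows ended both calls (limma adjusted p = 0.334 and 0.111).

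Of the ADAM family, ADAM23 and ADAMTS1 rose and ADAMTS9 fell. ADAM23, a catalytically inactive adhesion protein that binds LGI1 (chromosome 2, 207308262 to 207485851), measured 5.65, 5.29 and 5.43 FPKM in PC9 and 17.4, 19.99 and 20.7 FPKM in PC9-GR. The rise was 3.55-fold (log2 difference 1.65, SE 0.11, limma adjusted p = 8.55e-07). ADAMTS1, a secreted protease that cleaves proteoglycans such as versican (chromosome 21, 28208065 to 28217728), measured 0.468, 0.826 and 0.676 FPKM in PC9 and 5.15, 4.57 and 4.94 FPKM in PC9-GR. It rose 7.44-fold (log2 difference 1.83, SE 0.13, limma adjusted p = 1.33e-06, tested only through PC9-GR).

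ADAMTS9, a related proteoglycan protease (chromosome 3, 64501332 to 64997143), measured 4.79, 3.87 and 5.91 FPKM in PC9 and 1.34, 1.07 and 1.32 FPKM in PC9-GR. It fell 3.91-fold (log2 difference -1.37, SE 0.16, limma adjusted p = 1.96e-05). The antisense RNA ADAMTS9-AS1 has the same locus in the table and had 0.845 ± 0.239 FPKM in the PC9 libraries against 0.179 ± 0.105 FPKM in the PC9-GR libraries. How strand was used in counting is not given in the sources used here, so reads of the pair cannot be told apart. In each PC9 library ADAMTS9 exceeded ADAMTS1, by 10.2, 4.69 and 8.75 times, whereas in PC9-GR the ratio was 0.260, 0.235 and 0.267.

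Among the protocadherins PCDH1 fell and the gamma cluster genes PCDHGC3, PCDHGA11 and PCDHGA10 rose, while 4 others were below the filter. PCDH1, a protocadherin of airway epithelium (chromosome 5, 141232937 to 141258811), measured 26.1, 28.8 and 22.0 FPKM in PC9 and 7.39, 11.9 and 10.0 FPKM in PC9-GR. The fall was 2.63-fold (log2 difference -1.32, SE 0.17, limma adjusted p = 3.5e-05). The 6 gamma genes share a single locus in the table (chromosome 5, 140710251 to 140892546), so their FPKM depend on how reads of the constant exons were divided and are uncertain gene by gene.

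PCDHGC3 was the most abundant of the gamma genes, at 4.25, 3.91 and 4.01 FPKM in PC9 and 9.23, 10.4 and 9.02 FPKM in PC9-GR, a 2.35-fold rise (limma adjusted p = 1.61e-05). PCDHGA11 measured 0.856, 1.08 and 0.875 FPKM in PC9 and 3.71, 3.99 and 3.74 FPKM in PC9-GR, a 4.08-fold rise (limma adjusted p = 5.18e-06). PCDHGA10 measured 0.378, 0.810 and 0.690 FPKM in PC9 and 2.39, 3.14 and 3.05 FPKM in PC9-GR, a 4.57-fold rise (limma adjusted p = 2.01e-05). Both PCDHGA11 and PCDHGA10 met the filter only with their PC9-GR values, so their p-values are no support for a rise. All listed gamma genes had higher values in every PC9-GR library than in any PC9 library. PCDHGB4, PCDHGB6 and PCDHGB7 were below the filter, with PC9 means of 0.239, 0.149 and 0.0968 FPKM and PC9-GR means of 0.701, 0.726 and 0.604 FPKM. PCDHGB6 was the least even of these, from 0.350 to 1.08 FPKM over the PC9-GR libraries. Summed over the listed gamma genes, the PC9 libraries held 5.91, 6.36 and 6.04 FPKM and the PC9-GR libraries 16.8, 19.98 and 17.99 FPKM, a ratio of 2.99. The sum depends less than single genes on how reads were divided among the listed genes. It is not the total of the cluster, because 14 gamma genes are not listed and reads could be divided with them too. PCDH18, a protocadherin on chromosome 4, was also low, at 0.0721 to 0.179 FPKM in the PC9 libraries and 0.298 to 0.618 FPKM in the PC9-GR libraries.

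CNTNAP1, a contactin partner at axonal junctions with the myelin sheath (chromosome 17, 40830906 to 40851832), measured 0.251, 0.376 and 0.205 FPKM in PC9. In PC9-GR it measured 1.61, 1.62 and 1.73 FPKM, a 5.95-fold rise (log2 difference 1.06, SE 0.10, limma adjusted p = 5.08e-06, tested only through PC9-GR). Its locus overlaps that of CTD-3193K9.3, with the same limit on its value. NCAM2, a homophilic adhesion protein, was the only member whose groups overlapped, with PC9 values of 0.0946, 0.448 and 0.831 FPKM and PC9-GR values of 0.625, 2.19 and 1.05 FPKM. Its spread was wide in both lines, and an exact two-sided permutation of the libraries returned p = 0.2.

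TSPAN1 and TSPAN13 fell and TSPAN9 rose. TSPAN13 (chromosome 7, 16793159 to 16824161) measured 58.0, 66.4 and 76.2 FPKM in PC9 and 21.8, 22.9 and 26.8 FPKM in PC9-GR, a 2.81-fold fall (log2 difference -1.45, SE 0.13, limma adjusted p = 3.62e-06). TSPAN1 (chromosome 1, 46505811 to 46651630) measured 38.7, 44.02 and 47.4 FPKM in PC9 and 16.8, 24.8 and 19.8 FPKM in PC9-GR. Its fall of 2.12-fold (limma adjusted p = 6.4e-05) was no longer called once totals were made equal (limma adjusted p = 0.0741). TSPAN9 (chromosome 12, 3186520 to 3395730) measured 4.30, 6.38 and 4.99 FPKM in PC9 and 10.9, 12.9 and 12.7 FPKM in PC9-GR, a 2.33-fold rise (limma adjusted p = 5.58e-05). TSPAN13 remained above TSPAN9 in all 6 libraries, by 10.4 to 15.3 times in PC9 and by 1.78 to 2.11 times in PC9-GR.

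**Figure D1:**
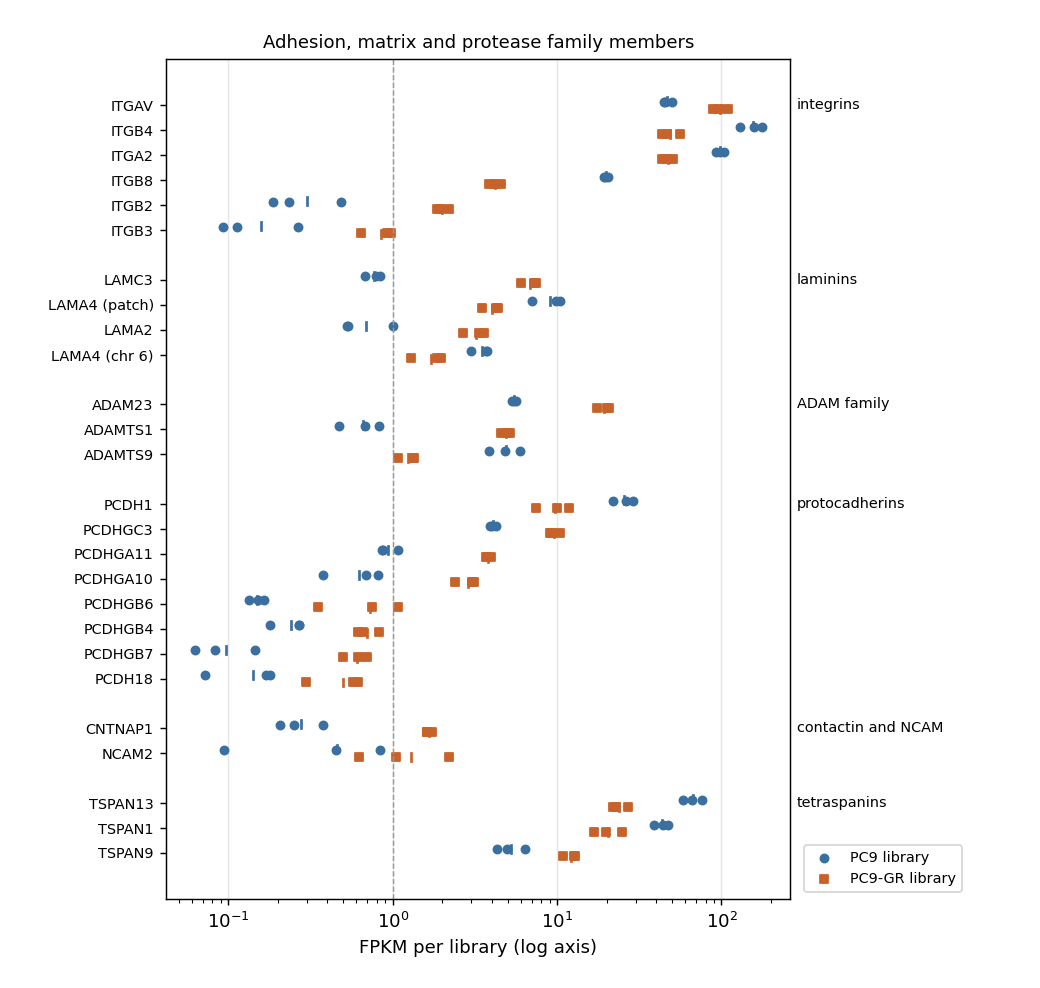
FPKM of each adhesion, matrix and protease family member in the 6 libraries, on a log axis with PC9 as circles, PC9-GR as squares and short lines at the group means. ITGB4 goes from 130.5 to 176.5 FPKM in PC9 to 43.6 to 56.2 FPKM in PC9-GR, LAMC3 and the gamma protocadherins move the other way, and only NCAM2 overlaps between groups.

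Class 3 semaphorins, secreted ligands of plexin and neuropilin receptors, moved in opposite directions. SEMA3E, which can bind PLXND1 without a neuropilin (chromosome 7, 82993221 to 83278326), measured 0.482, 0.662 and 0.402 FPKM in PC9 and 10.8, 13.6 and 15.8 FPKM in PC9-GR. No tested member had a larger difference, 25.9-fold (log2 difference 3.23, SE 0.16, limma adjusted p = 1.82e-07). SEMA3E met the filter only through PC9-GR, so this p-value is no support for the rise. SEMA3A, a ligand of NRP1 with plexin A receptors (chromosome 7, 83585092 to 84122040), measured 8.41, 6.73 and 7.07 FPKM in PC9 and 1.91, 2.76 and 3.41 FPKM in PC9-GR. It fell 2.75-fold (log2 difference -1.20, SE 0.17, limma adjusted p = 8.96e-05).

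SEMA3F, a ligand of NRP2 (chromosome 3, 49977439 to 50226508), measured 9.49, 9.20 and 7.07 FPKM in PC9 and 2.01, 3.28 and 2.82 FPKM in PC9-GR, a 3.18-fold fall (limma adjusted p = 3.19e-05). The authors' deposited table gives SEMA3F a q-value of 0.0463. SEMA3A and SEMA3F were therefore the main class 3 semaphorins listed in PC9, and SEMA3E in PC9-GR. The SEMA3A to SEMA3E ratio within a library was 17.5, 10.2 and 17.6 in PC9 and 0.177, 0.204 and 0.216 in PC9-GR. Their loci are neighbours on chromosome 7, 306765 bases apart in the table, with 0 listed genes between them.

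Of the membrane-bound semaphorins, both that were tested rose. SEMA6B, a transmembrane ligand of plexin A receptors (chromosome 19, 4542599 to 4559820), measured 0.770, 0.599 and 0.381 FPKM in PC9 and 2.33, 3.35 and 2.44 FPKM in PC9-GR, a 4.65-fold rise (limma adjusted p = 2.65e-05). SEMA4A, a transmembrane semaphorin also known from immune cells, rose 3.08-fold from 1.18 ± 0.295 to 3.62 ± 1.25 FPKM (limma adjusted p = 0.000435). SEMA5A, a transmembrane semaphorin with thrombospondin repeats, fell short of the filter and averaged 0.924 ± 0.187 FPKM over the PC9 libraries and 0.422 ± 0.139 FPKM over the PC9-GR libraries. PLXNC1, the receptor of SEMA7A and the only plexin listed, rose 2.55-fold from 0.552 ± 0.103 to 1.41 ± 0.244 FPKM (limma adjusted p = 0.000396). None of these 4 had overlapping libraries. SEMA6B, SEMA4A and PLXNC1 met the filter only with their PC9-GR values, so their p-values are no support for a rise.

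Ephrin and Eph receptor rows all had lower values in PC9-GR. EFNB2, the transmembrane ligand of EPHB4 and other EphB receptors (chromosome 13, 107142078 to 107187462), measured 67.3, 67.3 and 70.4 FPKM in PC9 and 27.96, 27.3 and 33.7 FPKM in PC9-GR. The PC9 values lay close together, and the fall was 2.31-fold (log2 difference -1.18, SE 0.11, limma adjusted p = 4.04e-06). With equal totals the log2 difference of EFNB2 was -0.40 (limma adjusted p = 0.00482). EPHA10, an Eph receptor without kinase activity (chromosome 1, 38179551 to 38230805), measured 2.50, 3.00 and 3.62 FPKM in PC9 and 0.579, 1.22 and 1.22 FPKM in PC9-GR, a 3.02-fold fall (limma adjusted p = 0.000263). EPHB6, another kinase-inactive receptor, was not tested by limma and averaged 0.990 ± 0.227 FPKM over the PC9 libraries and 0.389 ± 0.0839 FPKM over the PC9-GR libraries, with an exact permutation p of 0.1. The 3 rows are the family's only members by the rule, and 44.6% of the other coding rows tested were called lower.

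In the slit and robo group SLIT2 and ROBO3 rose, and ROBO2 and ROBO4 were below the filter. SLIT2, a secreted ligand of ROBO1 and ROBO2 (chromosome 4, 20254882 to 20622184), measured 6.03, 5.53 and 5.33 FPKM in PC9 and 18.997, 13.7 and 15.6 FPKM in PC9-GR. The rise was 2.85-fold (log2 difference 1.35, SE 0.14, limma adjusted p = 8.05e-06). ROBO3, a receptor known from commissural axons (chromosome 11, 124735281 to 124751366), measured 0.171, 0.178 and 0.0728 FPKM in PC9 and 2.43, 3.15 and 3.12 FPKM in PC9-GR. It rose 20.6-fold (log2 difference 1.77, SE 0.12, limma adjusted p = 7.72e-07, tested only through PC9-GR), and the fold rests on low PC9 levels.

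ROBO4, a receptor known from endothelial cells, lies 2219 bases from ROBO3 in the table and was below the filter. It measured 0.001, 0.016 and 0.0395 FPKM in PC9 and 1.42, 1.24 and 0.880 FPKM in PC9-GR, with an exact permutation p of 0.1. One PC9 library is at the floor, so no fold is given, and the authors' deposited table gives a q-value of 0.111. None of 8 endothelial markers is listed, which leaves their levels unknown, because only rows with a difference between the lines are listed. ROBO2, the SLIT2 receptor in the table, was also below the filter but in the other direction, at 0.983, 0.627 and 1.08 FPKM in PC9 and 0.147, 0.276 and 0.254 FPKM in PC9-GR. Within libraries the ROBO2 to ROBO3 ratio ran from 3.51 to 14.9 in PC9 and from 0.0606 to 0.0878 in PC9-GR, so the more abundant of the pair differed between the lines.

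NTNG1, a membrane-anchored netrin G, was below the filter at 0.927, 0.711 and 2.08 FPKM in PC9 and 0.144, 0.127 and 0.260 FPKM in PC9-GR. UNC5B, a netrin receptor, was low in both lines, at 0.526 ± 0.0668 and 0.206 ± 0.0346 FPKM. The groups did not overlap for either gene.

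SLITRK genes encode synaptic adhesion proteins with leucine-rich repeats. SLITRK6 (chromosome 13, 86366924 to 86373623) measured 4.12, 6.3999 and 8.01 FPKM in PC9 and 0.963, 1.35 and 1.76 FPKM in PC9-GR, a 4.55-fold fall (log2 difference -1.58, SE 0.22, limma adjusted p = 6.67e-05). Its PC9 libraries were uneven, yet the lowest lay above all PC9-GR libraries. SLITRK5, the next listed gene on chromosome 13 and 1951245 bases away, rose 2.30-fold from 1.33 ± 0.176 to 3.06 ± 0.123 FPKM (limma adjusted p = 0.00014). The SLITRK6 to SLITRK5 ratio was 2.69 to 6.59 in PC9 and 0.318 to 0.597 in PC9-GR. SLITRK4 on chromosome X was below the filter, at 0.766 ± 0.278 and 0.293 ± 0.0780 FPKM.

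The LRRC symbols join proteins that share leucine-rich repeats rather than a common function. LRRC61 (chromosome 7, 149941004 to 150035239) measured 25.98, 32.8 and 31.0 FPKM in PC9 and 83.9, 96.5 and 82.9 FPKM in PC9-GR, a 2.94-fold rise (log2 difference 1.53, SE 0.12, limma adjusted p = 1.59e-06). Its locus overlaps that of ZBED6CL, so its value is uncertain where reads could be split. LRRC6, needed for the assembly of ciliary dynein arms (chromosome 8, 133584319 to 133687838), measured 5.60, 5.43 and 5.55 FPKM in PC9 and 1.28, 1.70 and 1.31 FPKM in PC9-GR. It fell 3.87-fold (log2 difference -1.43, SE 0.13, limma adjusted p = 5.08e-06), with PC9 values that barely varied. LRRC17 was near the floor in PC9, at 0.001, 0.0374 and 0.0393 FPKM, and measured 0.433, 0.378 and 0.551 FPKM in PC9-GR.

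**Figure D2:**
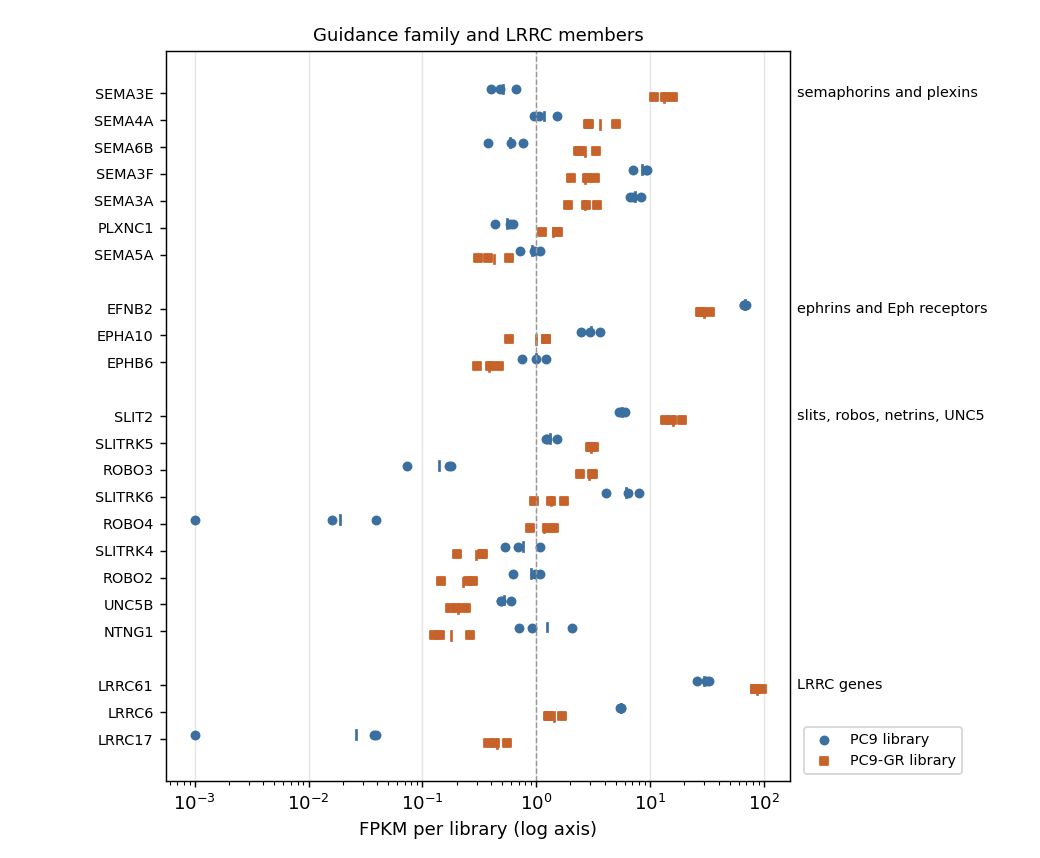
FPKM of each guidance family and LRRC member in the 6 libraries, on a log axis with PC9 as circles, PC9-GR as squares and short lines at the group means. SEMA3E and ROBO3 go from under 1 FPKM in PC9 to above it in PC9-GR, EFNB2 and SLITRK6 are lower in PC9-GR, and ROBO4 and LRRC17 each have 1 PC9 library at the floor of 0.001 FPKM.

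The 14 members below the filter are ITGB3, PCDH18, PCDHGB4, PCDHGB6, PCDHGB7, NCAM2, SEMA5A, EPHB6, NTNG1, ROBO2, ROBO4, SLITRK4, UNC5B and LRRC17. For 13 of them the libraries of the groups did not overlap. Of all listed rows below the filter 86.5% did not overlap either, 50.6% with higher and 35.9% with lower values in PC9-GR. Over all 48 members, 47 did not overlap, 26 with higher and 21 with lower values in PC9-GR. The background is 94.8% of all listed rows (48.3% higher and 46.6% lower) and 97% of the other coding rows (56.2% higher and 40.8% lower). Without the filter limma called these 13 and not NCAM2 (limma adjusted p = 0.0552). The authors' deposited table gives 4 members a q-value above 0.05: ROBO4 (0.111), NCAM2 (0.107), PCDHGB4 (0.0677) and PCDHGB7 (0.0561).

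The scaling of the libraries moved the sizes of the differences. With equal totals over the listed rows the median over all tested rows shifted by 0.47 on the log2 scale, and with median-ratio scaling it shifted by -0.14. The listed totals were 28346 to 30541 FPKM in the PC9 libraries and 16705 to 17114 FPKM in the PC9-GR libraries. The listed rows were chosen for a difference, so making their totals equal also takes out difference between the lines. A call lost with equal totals therefore does not show that a gene is unchanged. Each of the 34 tested members kept its direction under both scalings. With equal totals the 15 lower differences shrank, to between -1.29 (ITGB8) and -0.16 (LAMA4 on chromosome 6), and the 19 higher ones grew, to between 1.03 (PLXNC1) and 3.77 (SEMA3E). With equal totals 12 members stayed called lower, and the entries that lost the call are the LAMA4 pair and TSPAN1. The 19 higher calls were made under each scaling.

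**Figure D3:**
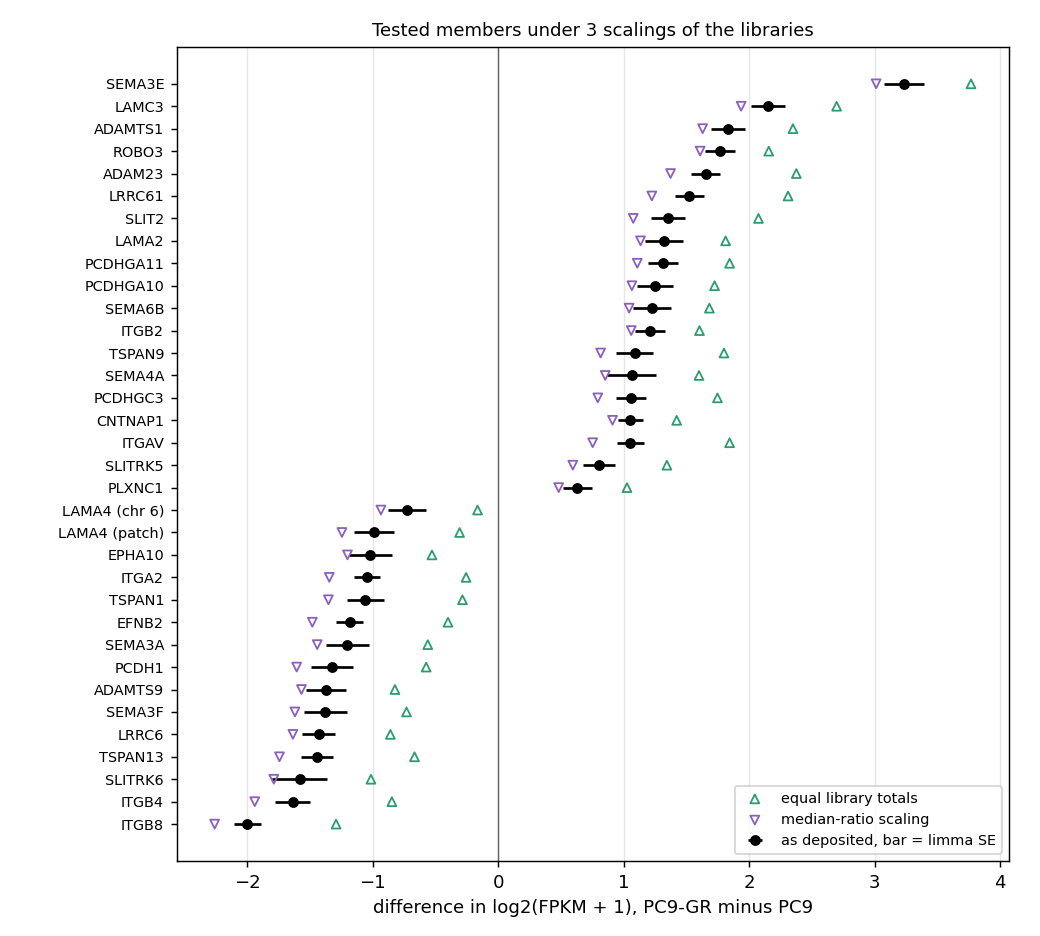
Difference in log2(FPKM + 1), PC9-GR minus PC9, of the 34 tested members, as deposited (circles, bars are limma standard errors), with equal library totals (upward triangles) and with median-ratio scaling (downward triangles). SEMA3E is at the top (3.23) and ITGB8 at the bottom (-2.00), no member crosses 0, and equal totals bring LAMA4, ITGA2 and TSPAN1 closest to it.

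Ratios of 2 members within a library do not depend on how libraries are scaled. The 9 pairs compared were chosen after the values were seen, to set side by side relatives that moved apart, and carry no test. In 6 of them the order turned in all libraries: ITGB4 to ITGAV, SEMA3A to SEMA3E, SEMA3F to SEMA3E, SLITRK6 to SLITRK5, ADAMTS9 to ADAMTS1 and ROBO2 to ROBO3. ITGB4 exceeded ITGAV by 3.93, 3.46 and 2.61 times in PC9 and stood at 0.492, 0.580 and 0.426 of it in PC9-GR. PCDH1 exceeded PCDHGC3 by 5.48 to 7.38 times in PC9, whereas in PC9-GR the ratio ran from 0.801 to 1.14, so neither gene led throughout. For TSPAN13 to TSPAN9 and ITGB8 to ITGB3 the ratio narrowed without turning.

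**Figure D4:**
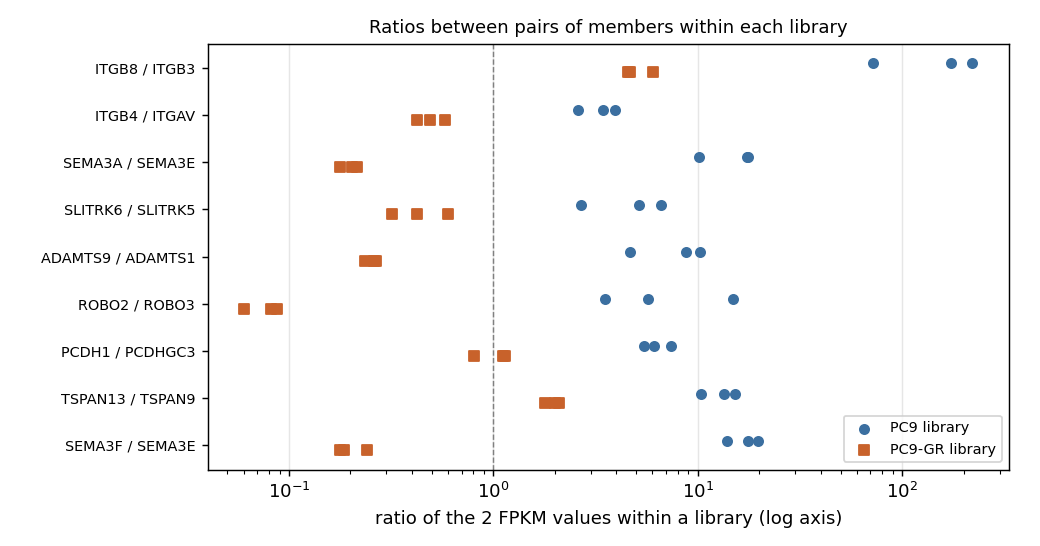
Ratio of the FPKM values of 2 members within each library, on a log axis with the dashed line at 1, PC9 as circles and PC9-GR as squares. For 6 pairs all PC9 libraries lie right of the line and all PC9-GR libraries left of it, as for SEMA3A to SEMA3E (10.2 to 17.6 and 0.177 to 0.216).

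The members are spread over 17 chromosomes and a patch scaffold. Chromosome 5 holds 9, of which 6 are the gamma protocadherins, and chromosome 7 holds 7, of which 3 have a higher and 4 a lower ratio. On chromosome 21 all 3 members (ITGB2, ADAMTS1 and NCAM2) have a higher ratio, and so do the other 8 coding rows there. On chromosome 3 all 3 members (ADAMTS9, SEMA3F and ROBO2) have a lower ratio, as do 38 of the other 64 coding rows. The nearest listed gene on each side of a member had the same direction in 57 of 94 cases (60.6%), against 64.1% over all listed rows. Loci in the table can extend beyond the gene they name.

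Genes that work with these families were taken from 8 lists of related genes, without the members. Some met the filter only with the values of the line where they are higher, so their p-values are no support for a difference. These include FERMT3, COL4A1, FAT4, RECK and LRIG1 among the higher genes and COL17A1 and RGMA among the lower. Of 30 integrin adhesion adaptors 6 are listed, and 4 were called higher and 2 lower, with a median log2 difference of 1.03. The kindlins, which activate integrins, moved apart: FERMT1, the epithelial kindlin, fell 2.64-fold to 18.9 ± 3.23 FPKM (limma adjusted p = 9.45e-06). FERMT2, the widely expressed kindlin, rose 2.53-fold from 15.9 ± 1.69 to 40.3 ± 7.51 FPKM (limma adjusted p = 1.52e-05). FERMT3, also a kindlin, rose 3.47-fold from 0.88 to 3.06 FPKM (limma adjusted p = 0.00014). TNS1, a tensin that links integrins to actin, rose 4.69-fold to 5.56 ± 0.792 FPKM, and TNS4, a tensin without the actin-binding part, fell 2.40-fold from 8.61 ± 0.0698 FPKM. FERMT2 lies on chromosome 14, which the background of other coding rows leaves out.

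Of 30 integrin ligands outside collagens and laminins 6 are listed, and 4 were called higher and 2 lower, with a median log2 difference of 1.30. ICAM1, a ligand of ITGB2 integrins, rose from 7.81 ± 2.16 to 26.2 ± 5.08 FPKM, and CTGF rose 11.7-fold. EDIL3, a ligand of ITGAV integrins, and ICAM2 fell 2.44-fold and 2.16-fold, and neither was called once totals were made equal (limma adjusted p = 0.0601 and 0.0692). Of 29 laminin and basement membrane partners 5 are listed, with 2 called higher and 1 lower and a median log2 difference of 1.31. COL4A1, a collagen of basement membranes, rose 19.3-fold from 0.205 ± 0.0774 to 3.95 ± 0.736 FPKM, and SGCB, a sarcoglycan, rose 3.55-fold. COL17A1, a hemidesmosome collagen that binds ITGB4, fell 4.81-fold from 4.44 ± 0.982 to 0.924 ± 0.373 FPKM (limma adjusted p = 3.21e-05).

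Of 38 axon guidance partners 7 are listed, and 4 were called higher and 1 lower, with a median log2 difference of 1.009. CHN1, a Rac regulator downstream of Eph receptors, rose 2.60-fold, and CRMP1, a collapsin response mediator that acts downstream of SEMA3A, rose 2.74-fold from 1.43 ± 0.313 to 3.92 ± 0.472 FPKM (limma adjusted p = 9.44e-05). RGMA, a ligand of neogenin, fell 8.25-fold from 2.21 ± 0.134 to 0.268 ± 0.0468 FPKM (limma adjusted p = 1.4e-06, tested only through PC9). Of 8 neural markers 2 are listed, MBP called lower and GFAP below the filter, and their summed level, nearly all of it MBP, was 22.2 to 22.4 FPKM over the PC9 libraries and 7.18 to 7.99 FPKM over the PC9-GR libraries. GFAP had the other direction, with means of 0.212 and 0.905 FPKM and no overlap between the lines. MBP lies on chromosome 18, and the part of these markers in the guidance results was not tested.

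Among 13 metalloprotease inhibitors and ADAM regulators, TIMP3, an inhibitor of ADAM and ADAMTS proteases, fell 2.60-fold from 184.8 ± 16.1 to 71.1 ± 5.18 FPKM. RECK, a membrane-anchored inhibitor, rose 3.75-fold from 1.008 ± 0.201 to 3.78 ± 1.08 FPKM (limma adjusted p = 0.00012). Of 13 tetraspanins and partners without a TSPAN symbol, CD82 and ROM1 rose 3.24-fold and 2.22-fold and 0 fell. Of 38 immunoglobulin and catenin adhesion partners 5 are listed. FAT4, an atypical cadherin, was called higher, and ALCAM and CELSR1 were called lower, both only when totals were not equalised (limma adjusted p = 0.0742 and 0.174 with equal totals). Of 31 leucine-rich repeat relatives, LRIG1, which restrains EGFR family receptors, rose 51.3-fold from 0.152 ± 0.0272 to 7.81 ± 1.55 FPKM. LRFN3, a synaptic adhesion protein, fell 2.23-fold and lost its call with equal totals (limma adjusted p = 0.134). These counts, which hold coding rows only, read against 55.2% called higher and 44.6% called lower over the other coding rows outside chromosomes 14 and 18. Over all tested rows the shares were 48.4% and 51.3%. The list medians read against 0.71 over the other coding rows tested and -0.63 over all tested rows. They rest on few genes from rows already selected for a difference, so they largely restate the counts.

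**Figure D5:**
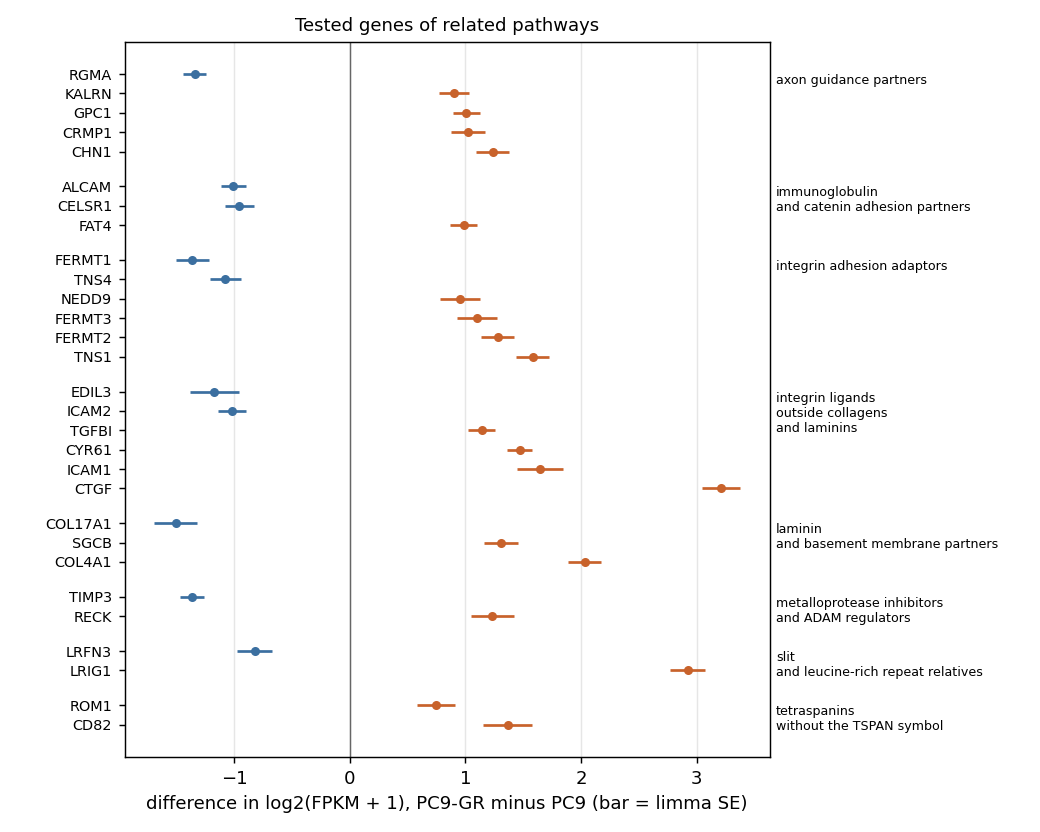
Difference in log2(FPKM + 1), PC9-GR minus PC9, of the tested genes in 8 lists of related genes, with bars for limma standard errors, orange for higher and blue for lower. CTGF (3.21) and LRIG1 (2.92) have the largest rises, and FERMT1 and FERMT2 lie on opposite sides of 0.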

How the data were processed

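RNA was measured in 6 libraries, 3 of PC9 and 3 of PC9-GR, from total RNA and a strand-specific Agilent kit, per the labels' protocols. TopHat and Cufflinks were used, per the submitters' processing notes; the sources used here give no version, build, annotation or strand setting. Per the file headers, the deposited values are FPKM for each library and group, followed by the authors' ratio between the lines, that ratio as log2, and a p-value, a q-value and a CV score (not used). Depth is unknown, so no counting interval is given, and p-values measure the spread among 3 cultures.

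From the deposited FPKM, log2(FPKM + 1) was tested with limma 3.58.1 in R 4.3.3 (variance trend, group as the only term, two-sided, Benjamini-Hochberg over 1207 rows with at least 1 FPKM in at least 3 libraries), called at adjusted p under 0.05. The other 498 rows were not tested, and members among them got a two-sided exact permutation test. Folds are ratios of mean FPKM, and log2 differences understate the change of low genes. The step was tested on simulated data in which most genes were unchanged. That setting differs from rows all selected for a difference, so it does not give the error rate here. Alternatives were a pseudocount of 0.1, no filter, a filter at 5 FPKM, both scalings, a replicate block and leaving out each library.

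Library values were given for called members with a mean of at least 5 FPKM in a group and for the up to 3 called members per family with the largest difference. Of related lists, up to 2 called genes per direction were named, and FERMT3 was added to them. Members and lists were chosen with earlier results of these data known. A gene of the axon guidance list is not reported here and was left out of that list's counts.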

Additional observations from a re-analysis of the deposited data

How the results depend on the processing

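Of the 34 tested members, each kept its direction under each alternative that tested it, and the 3 lost calls are those of the LAMA4 entries and TSPAN1 with equal library totals. With a filter at 5 FPKM, 8 members were called higher and 11 lower, and over all rows 234 were called higher and 393 lower, since fewer rows were tested. Without the filter 26 members were called higher and 21 lower, and over all rows 846 and 810. Equal totals gave 19 and 12 members, and 586 and 433 rows. Leaving out each library in turn, with the tested rows kept, gave 19 members higher and 15 lower each time, and 578 to 581 rows higher and 614 to 618 lower, against 584 and 619 with all libraries. Replicate numbers did not pair the libraries: same-numbered libraries had deviation correlations of -0.098, 0.082 and 0.164. With the replicate block 19 members were called higher and 15 lower, and 586 and 619 rows. Leaving out members at shared loci, an alternative added after the data were seen, gave 14 and 13. Depth is unknown, and values near the floor, as for ROBO4 and LRRC17, limit their folds.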
